A study of Mus musculus with 12 samples.

Results

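Ribosomal proteins of the cytosol and of mitochondria were followed in RNA from cells sorted as bone marrow endothelial cells of mice with cardiovascular disease, gated as CD45-, CD31 high and SCA-1+ after lineage depletion. Members were all protein-coding genes whose symbol opens with Rpl, Rps, Mrpl or Mrps and a digit, without symbols marked as pseudogenes and without the 10 Rps6k kinases. This gave 160 of the 55421 genes counted, 82 cytosolic (49 of the large and 33 of the small subunit) and 78 mitochondrial (49 large and 29 small). The rule also takes Rps19bp1, a regulator of the deacetylase SIRT1 that is named for binding RPS19, and Mrps36, which is known as a part of the 2-oxoglutarate dehydrogenase complex. Naive control mice, mice made hypertensive by chronic angiotensin II, Apoe(tm1Unc) knockout mice with atherosclerosis on western diet and mice with acute myocardial infarction (MI) gave 3 libraries each, and every mouse was 20 weeks old. All but the Apoe(tm1Unc) mice were labelled C57BL/6J. The labels place the MI cells at 2 days after coronary ligation, while the text of the study gives a later day. The 3 controls serve all 3 comparisons with disease, genotype and diet cannot be told apart in the atherosclerosis group, and no sham-operated or pump-control group was analysed here.

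Libraries held between 17007088 and 25136936 counts, at which 3 counts equal 0.119 to 0.176 CPM (counts scaled to the library total). Apoe, the targeted gene, was at 6.85 to 15.6 CPM in the knockout libraries and at 463 to 1402 CPM in all others. All 12 endothelial markers were detected but summed to 141 to 281 CPM (control 141 to 249.9, hypertension 157 to 180.2, atherosclerosis 171 to 281, MI 171 to 191), with Cdh5 at 2.01 to 4.30 CPM. The 10 neutrophil markers summed to 33547 to 89475 CPM, and Ptprc, the gene of the CD45 antigen that the sort gated against, was at 432 to 838 CPM. Levels given here therefore belong to the sorted sample as a whole, and in such bulk RNA fewer cells of a type cannot be told apart from less RNA per cell.

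Cytosolic ribosomes translate nuclear messenger RNA, and their protein subunits are made in equal numbers from single genes scattered over the genome. Their messenger RNAs begin with a run of pyrimidines at the very 5′ end, through which the mTOR pathway and LARP1 adjust translation, so that protein output can change without a change in RNA. Mitochondrial ribosomes carry a separate, nuclear-encoded set of proteins and translate the few messages of mitochondrial DNA, all of which encode parts of oxidative phosphorylation. Mammalian genomes also hold many processed pseudogenes of cytosolic ribosomal proteins, and short reads from a parent gene can match its copies.

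That last point bears on how the members could be counted. The Rps27 family shows it at the level of sequence. Printed here are the first 30 coding bases of Rps27 (a zinc finger protein of the small subunit), of Rps27rt (a copy without introns) and of Rps27l (a paralog induced by p53), from GENCODE transcripts of GRCm38, with capitals where a base differs from Rps27.
Rps27: atgcctctcgcaaaggatctccttcatccc
Rps27rt: atgcctctcgcaaaggatctccttcatccc
Rps27l: atgccCctGgcTaGAgatctGTtAcaCccT
Rps27 (chromosome 3, 90212522 to 90213651) and Rps27rt (chromosome 9, 114982366 to 114982739) were identical at all 255 bases of their closest annotated coding sequences, so no read inside these can be placed on one of them alone. Rps27l (chromosome 9, 66946086 to 66949516) differed from Rps27 at 60 of 256 aligned positions, 10 of them in the stretch above. Per kb of exon, the mean over the 12 libraries was 4.15 CPM for Rps27, 19.9 for Rps27rt and 115 for Rps27l. Unique windows, defined next, made up 9.38% of the coding sequences of Rps27, 0% of Rps27rt and 70.6% of Rps27l, and the values of Rps27 and Rps27rt are uncertain.

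To extend this to all members, each 50-base window (the read length) of a member's coding sequence was searched for in the annotated transcripts of every other gene. Of the cytosolic genes, 4 of 82 had all of their windows to themselves and 22 had none, with a median share of 16.4% unique windows. Of the mitochondrial genes, 42 of 78 had all windows to themselves and 1 had none, with a median of 100%. STAR counted only reads with a single place in the genome, so reads that match more than 1 place were left out. Reads were not mapped here, and a window shared with an overlapping gene at the same place counts as shared too. How many reads were lost for each gene is therefore not known. Among cytosolic genes the median counted level rose with the unique share up to 75% and was lower above it. The median was 7.63 CPM per kb for the 55 genes with up to 25% unique windows, 38.1 for 9 genes with 25 to 50%, 115 for 9 genes with 50 to 75% and 53.7 for the 9 genes above 75%. Spearman's rho between unique share and level was 0.56 over 82 cytosolic genes and 0.24 over 78 mitochondrial genes, a description in which all points share the same 12 libraries. Annotated ribosomal protein pseudogenes, 295 by symbol, summed to 84.5 to 175 CPM.

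**Figure D1:**
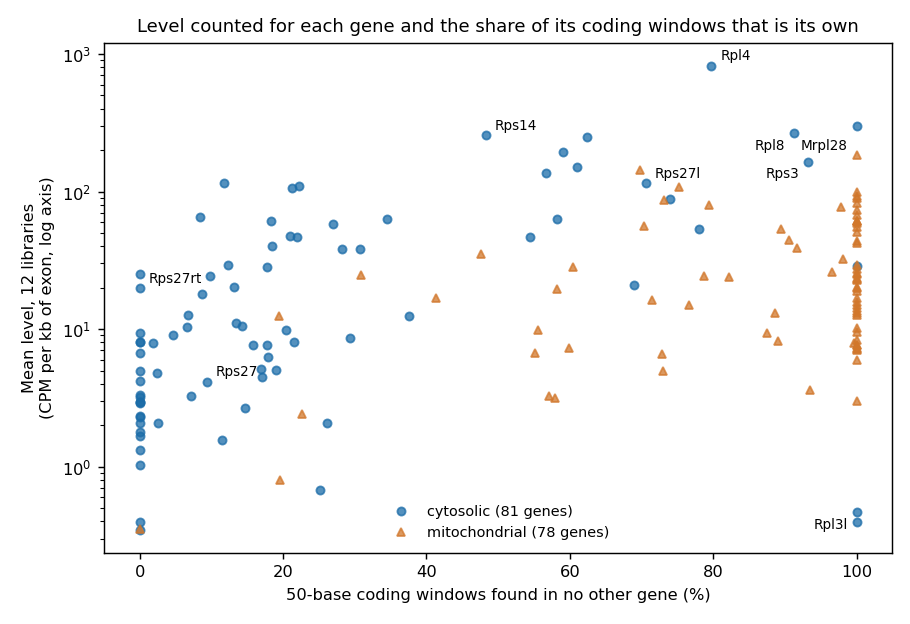
Mean level over the 12 libraries (CPM per kb of exon, log axis) against the share of 50-base coding windows found in no other gene, 1 point per gene. Cytosolic genes (circles; Rpl10l, at 0 counts, is not drawn) lie mostly on the left with low counted levels and a few well counted genes such as Rpl4 on the right, while most mitochondrial genes (triangles) stand near 100%.

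Among cytosolic members, a few genes carried most of the counts. The 6 most counted genes held 55.9% of all cytosolic counts, and Rpl4, a large subunit protein that reaches into the exit tunnel, held 21.2% alone. Rpl4 was also the highest per length, at 819.5 CPM per kb, and Rpl8 of the large subunit was among the next, at 265. In CPM, Rpl4 ranged from 1252 to 2228 (median 1605) and Rpl8 from 188 to 689 (median 323). Both had 79.7% or more unique windows. At the low end among tested genes stood Rpl3l (0.465 CPM per kb), the striated muscle form of Rpl3, then Rps10 (0.681) and Rpl5 (1.03), which binds 5S rRNA. Rpl3l had 100% unique windows and was counted at 0.401 to 1.23 CPM, whereas Rpl5 had none.

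Paralogs with tissue-restricted roles stayed low where they could be counted. Rpl3 and Rpl3l share 74.3% of aligned coding bases and stood at 29.5 and 0.465 CPM per kb. Rpl10l, an autosomal copy of the X-linked Rpl10 that serves male germ cells, had 0 counts in all 12 libraries although 88% of its windows were unique, while Rpl10 itself was at 3.28 CPM per kb with 7.11% unique windows. Rpl39l, a paralog of Rpl39 also known from male germ cells, was at 0 to 0.704 CPM and was not tested. Rpl7l1, a homolog of Rpl7 known from ribosome assembly, was at 53.7 CPM per kb against 38.4 for Rpl7, and Rpl22l1 was at 6.25 against 20.8 for Rpl22. Rpl36al and Rpl36a, both without a unique window, were at 8.04 and 1.79. Rps4x, the X-linked form of a small subunit protein, was at 24.4 with 9.86% unique windows. In pairs with different unique shares, the ratio of levels cannot be told apart from how well each gene could be counted.

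Mitochondrial members were counted more evenly, their 6 most counted genes holding 24.7% of the counts of the set. The highest per length were Mrpl28 (183 CPM per kb), Mrpl18 (144) and Mrps18c (108), and the lowest of those tested were Mrpl23 (0.801), Mrps36 (2.42) and Mrps35 (3.02). Mrpl18, which helps bring 5S rRNA to mitochondria, ranged from 110.5 to 272 CPM, and Mrpl23 from 2.65 to 6.98 CPM. Of all members, 155 had enough counts to be tested (78 cytosolic and 77 mitochondrial). The 5 others were Rpl10l, Rpl39l, Rpl23a, Rpl24 and Mrpl53, of which Rpl23a (0.0541 to 0.5045 CPM), Rpl24 (0.116 to 0.815) and Mrpl53 (0.0552 to 0.701) had no unique window.

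In all 12 libraries the mean level per length was lower for the cytosolic than for the mitochondrial set, a difference that depended on which members could be counted. On the log2 scale of CPM per kb, averaged over all members of a set, cytosolic minus mitochondrial was -0.60, -0.84 and -0.86 in controls, -0.83, -0.86 and -1.08 in hypertension, -1.07, -0.58 and -0.50 in atherosclerosis and -0.29, -0.87 and -0.75 after MI, in the order of replicates 2, 3 and 4. The group means were -0.77 ± 0.14, -0.92 ± 0.14, -0.72 ± 0.30 and -0.64 ± 0.31 (SD, n = 3), and the libraries of every disease group overlapped with controls. Restricted to the 18 cytosolic and 71 mitochondrial genes with at least 50% unique windows, the same difference turned to 0.79 in controls, 0.52 in hypertension, 0.75 in atherosclerosis and 0.77 after MI. Summed over genes without regard to length, the cytosolic set took 0.540% to 1.199% of all counts and the mitochondrial set 0.406% to 0.591%.

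Cytosolic members moved together from mouse to mouse. The correlation of 2 members over the 12 libraries had a median of 0.72 and was positive in 91.3% of pairs. Relative to the control mean, the median of the 78 tested genes was 0.34, -0.20 and -0.13 on the log2 scale in the control libraries, -0.02, -0.18 and -0.29 in hypertension, -0.66, 0.29 and -0.07 in atherosclerosis and 0.63, -0.02 and 0.13 after MI. One library of each extreme stood out. MI replicate 2 was the highest of the 12 libraries for 63 of 78 genes (80.8%, against 17.5% of all genes tested), and atherosclerosis replicate 2 was the lowest for 57 (73.1%, against 19.0% of all genes tested). Both subunits took part, with medians in MI replicate 2 of 0.56 for the large and 0.72 for the small subunit and in atherosclerosis replicate 2 of -0.59 and -0.66. The 16 tested cytosolic genes with at least 50% unique windows gave 0.75 and -0.70 in these libraries, and the 62 others 0.59 and -0.64, so that well and poorly counted genes moved alike in them.

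**Figure D2:**
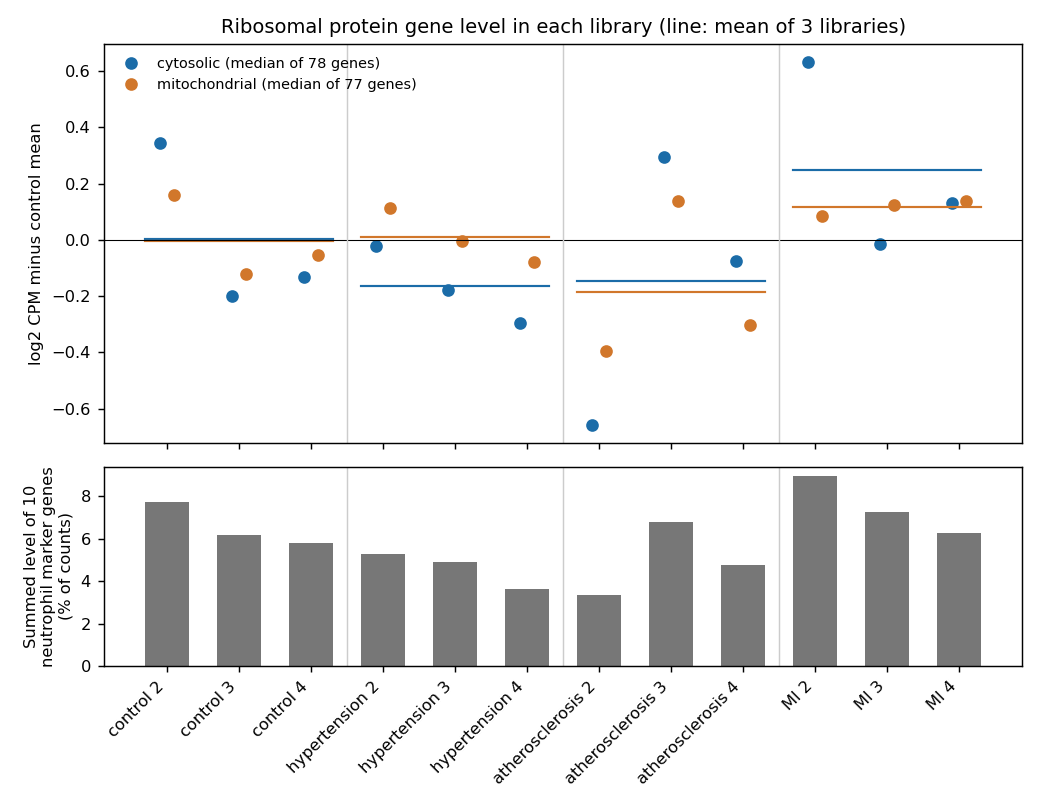
Top, median over tested genes of log2 CPM minus the control mean in each library, for cytosolic and mitochondrial members, with lines at the mean of 3 libraries. Bottom, summed level of 10 neutrophil marker genes as percent of counts. MI replicate 2 (cytosolic 0.63) and atherosclerosis replicate 2 (-0.66) are the extremes of the cytosolic set and of the neutrophil sum.

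Rps19, which is mutated in Diamond-Blackfan anemia, had the largest spread among cytosolic genes of at least 10 CPM. It reached 438, 265 and 269 CPM in controls and 551, 308 and 258 after MI. In hypertension it was at 289.8, 262 and 130.2 CPM, and the atherosclerosis libraries had 89.5, 451 and 234. The atherosclerosis libraries spanned more than the controls, and every disease group overlapped with them. The SD of log2 CPM over 12 libraries was 0.73 for Rps19, 0.72 for Rpl41, which encodes the shortest of the cytosolic ribosomal proteins, and 0.68 for Rps2, against a median of 0.39 over the 78 tested cytosolic genes, 0.29 over the 77 mitochondrial genes and 0.33 over all genes tested. Rpl41 ranged from 33.0 CPM in atherosclerosis replicate 2 to 218 in MI replicate 2, and Rps2 from 76.9 to 468 in the same libraries. The steadiest were Rpl7l1 (143 to 214 CPM, SD 0.16), Rpl3 (80.0 to 122 CPM, SD 0.17) and Rpl15 (11.5 to 19.4 CPM, SD 0.20).

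Mitochondrial members shared less of this pattern. The median correlation of 2 members was 0.44, with 77.1% of pairs positive. Their median relative to the control mean was 0.16, -0.12 and -0.06 in controls, 0.11, 0.00 and -0.08 in hypertension, -0.39, 0.14 and -0.30 in atherosclerosis and 0.09, 0.13 and 0.14 after MI. MI replicate 2 was the highest library for 24 of 77 genes (31.2%), and atherosclerosis replicates 2 and 4 were the lowest for 42 and 28. The 3 MI libraries lay close together on this measure (SD 0.03), although their cytosolic medians spread by an SD of 0.34.

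**Figure D3:**
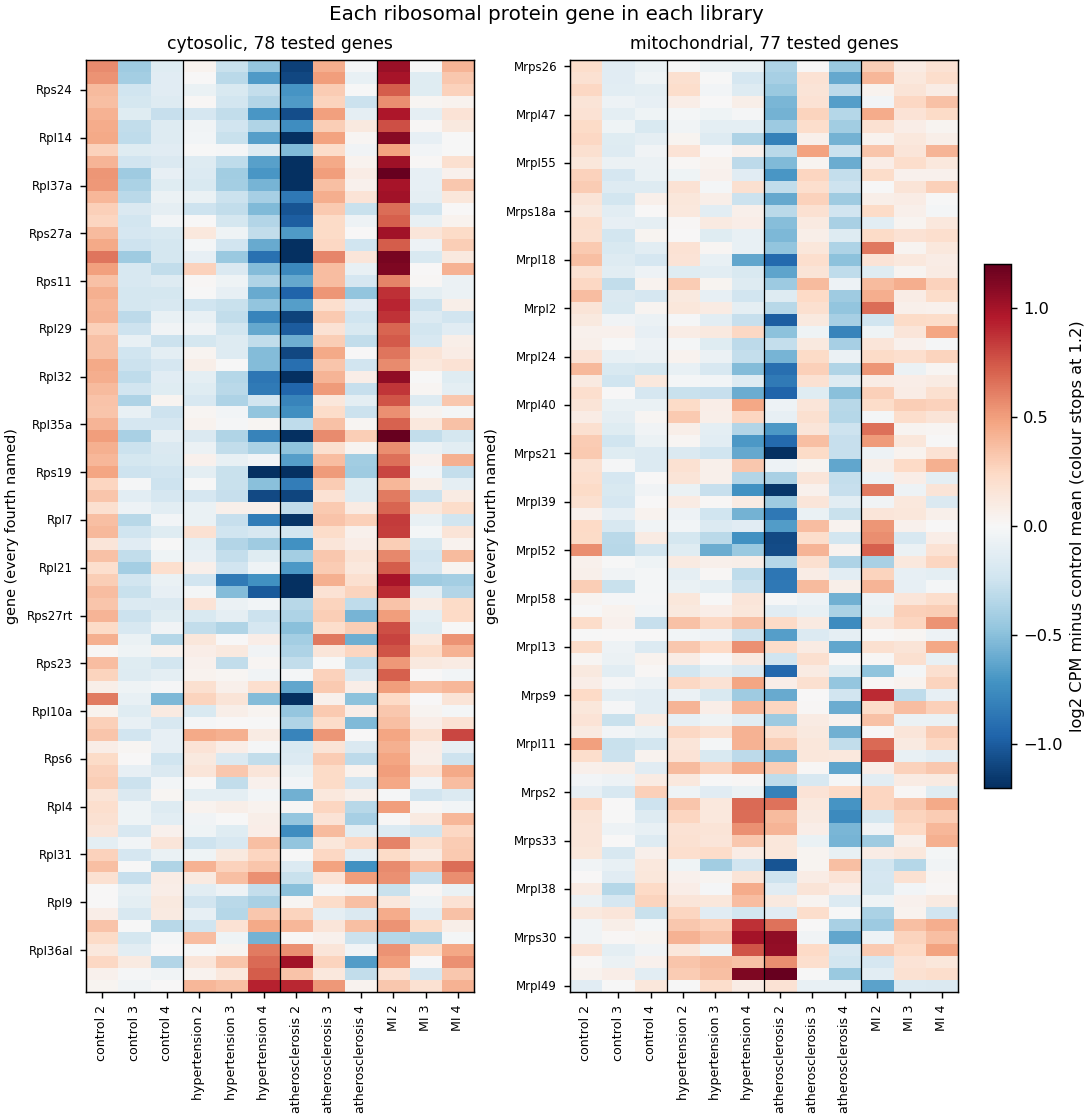
Log2 CPM minus the control mean for each tested gene (rows, ordered by correlation with the mean of their set) in each of the 12 libraries (columns). Most cytosolic rows are lowest in atherosclerosis replicate 2 and highest in MI replicate 2, while rows at the foot of the mitochondrial panel, among them Mrps30, run the other way.

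Part of the mitochondrial members ran opposite to the rest, shown here by Mrpl37 and Mrps30. Mrpl37, a large subunit protein, had 73.9, 75.8 and 65.4 CPM in controls, 88.7, 92.1 and 157 in hypertension, 185, 71.5 and 52.6 in atherosclerosis and 65.4, 81.3 and 82.8 after MI. Mrps30, which in mammals sits in the large subunit in spite of its name, had 103, 107 and 108 CPM in controls, 142, 135 and 211 in hypertension, 221, 102 and 68.4 in atherosclerosis and 101, 128 and 136 after MI. Both were highest in atherosclerosis replicate 2 and hypertension replicate 4, in which the cytosolic set was lowest. Next to Mrpl52 (SD 0.52, 11.7 to 41.85 CPM, highest in MI replicate 2), they were the mitochondrial genes with the largest spread, with SDs of 0.52 and 0.47. The steadiest mitochondrial genes were Mrpl3 (40.45 to 53.8 CPM, SD 0.12), Mrps7 (46.8 to 63.3, SD 0.12) and Mrps31 (27.2 to 37.0, SD 0.14).

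Some marker sums of other cell types moved with the same libraries, and others did not. The megakaryocyte sum ran from 317 CPM in control replicate 3 to 1500 in control replicate 2. The macrophage sum ran from 503 CPM in MI replicate 4 to 980 in atherosclerosis replicate 4. Correlations with the members were taken for the neutrophil, B cell, erythroid and endothelial sums only. The neutrophil sum was highest in MI replicate 2 (89475 CPM) and lowest in atherosclerosis replicate 2 (33547) and hypertension replicate 4 (36301), where controls had 57838 to 77046 CPM, all hypertension libraries at most 52954, those of atherosclerosis up to 67630 and those of MI at least 62795. None of its 10 genes was at 0 in all libraries. The sum of 9 B cell markers ran the other way, from 203 CPM in MI replicate 2 to 1229 in atherosclerosis replicate 2 (controls 521 to 741, hypertension 587 to 932, atherosclerosis from 494, MI up to 492). Over the 12 libraries, log2 CPM of a gene correlated with the log2 neutrophil sum with a median r of 0.79 for cytosolic members (positive for 72 of 78), 0.66 for mitochondrial members (59 of 77) and 0.00 for all genes tested. With the B cell sum the median r was -0.72 for cytosolic members (negative for 73 of 78) and -0.41 for mitochondrial members. The sum of 9 erythroid markers, lowest in atherosclerosis replicate 2 (7512 CPM) and highest in atherosclerosis replicate 3 (22501), gave a median r of 0.73 for cytosolic members (positive for 73 of 78) and 0.37 for mitochondrial members (54 of 77), beside -0.01 for all genes tested. With the neutrophil sum, for Mrpl37 and Mrps30 the r was -0.72 and -0.61, and for Rps19 it was 0.94. With the endothelial sum, the median r was -0.09 for cytosolic and -0.26 for mitochondrial members. The part of cell composition in the levels of ribosomal protein genes was not tested, and these correlations share their library totals.

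In hypertension, no ribosomal protein gene was called as different from controls. At an adjusted p under 0.05 (edgeR's quasi-likelihood test, Benjamini-Hochberg adjustment over 15999 genes), 0 of 155 members and 0% of all genes were called, and 0 members were called by edgeR's likelihood-ratio test or DESeq2. At an unadjusted p under 0.05, 1 cytosolic gene was higher and none lower, against 2.08% of all genes higher and 1.63% lower. The median log2 fold change was -0.16 for cytosolic members, of which 60 of 78 were below 0, and 0.02 for mitochondrial members, beside -0.01 over all genes. The 3 hypertension libraries lay above all controls for 14 of 77 mitochondrial genes and below them for 4, against 9.02% and 7.81% of all genes, and for cytosolic genes these counts were 1 and 5 of 78. The cytosolic median was 0.01 without control replicate 2 and stood at 0.32 with the neutrophil sum as a covariate. In that sum every hypertension library (at most 52954 CPM) lay below every control (at least 57838). The value with this covariate is therefore an extrapolation between groups that do not overlap in it.

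Rpl12, which forms the base of the stalk that engages elongation factors, was the member with the smallest p in hypertension and ran against its set. It lies on chromosome 2 from 32961559 to 32965345 and reached 6.56, 6.23 and 6.44 CPM in controls, 8.58, 8.36 and 12.6 in hypertension, 12.4, 9.40 and 6.62 in atherosclerosis and 8.17, 7.36 and 8.75 after MI. All 9 disease libraries were above the 3 controls, and over the 12 libraries its r was -0.62 with the neutrophil sum and 0.47 with the B cell sum. Its log2 fold change was 0.62 in hypertension (SE 0.24, edgeR adjusted p = 0.951), 0.57 in atherosclerosis (SE 0.24, edgeR adjusted p = 0.818) and 0.34 after MI (SE 0.24, edgeR adjusted p = 1). None of its windows was unique, and these values rest on a mean of 170 counts per library. Rpl9 was at 6.16 to 6.95 CPM in hypertension against 7.53 to 8.96 in controls without overlap (log2 fold change -0.34, SE 0.18, edgeR adjusted p = 0.951), and Rps28 at 6.76 to 12.94 against 12.92 to 18.9 with overlap (-0.50, SE 0.34, edgeR adjusted p = 0.951). Of mitochondrial genes, Mrps22 (28.3 to 30.7 CPM in controls, 37.3 to 38.8 in hypertension) and Mrpl45 (115 to 124 and 144 to 217), an inner membrane anchor of the ribosome, were higher in all 3 hypertension libraries than in controls, by log2 0.36 (SE 0.18) and 0.52 (SE 0.28). Mrpl45 was also among the genes that followed the B cell sum, with r = 0.68 over 12 libraries.

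In atherosclerosis, the members again gave no call, beside 0.144% of all genes. At an unadjusted p under 0.05, 1 of 78 cytosolic genes (Rpl12) was higher and 2 of 77 mitochondrial genes were lower, against 3.97% of all genes higher and 2% lower. The median log2 fold change was -0.11 for cytosolic and -0.15 for mitochondrial members, and 60 of 78 and 64 of 77 were below 0, beside a median of 0.01 over all genes. Libraries did not overlap for Rpl12 (higher) and for Mrpl19 and Mrpl10 (lower), with 5.06% of all genes higher and 4.45% lower in this way. Without atherosclerosis replicate 2 the cytosolic median was 0.11 and without control replicate 2 it was 0.08. Without atherosclerosis replicate 3 it was -0.35, with the neutrophil sum as a covariate it turned to 0.27. The mitochondrial median stayed below 0 with any one library left out and was 0.01 with the neutrophil sum as a covariate.

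Mrpl33, a large subunit protein on chromosome 5 from 31596935 to 31664384, had 229, 199.7 and 173 CPM in controls, 166, 164 and 132 in hypertension, 103, 179.8 and 141 in atherosclerosis and 243, 212 and 228 after MI. Its hypertension libraries lay below and its MI libraries overlapped with controls. The log2 fold change in atherosclerosis was -0.51 (SE 0.20, edgeR adjusted p = 0.746), and its r with the neutrophil sum was 0.94. Mrps12, the mitochondrial homolog of the bacterial decoding protein S12, had 88.9, 88.75 and 79.9 CPM in controls, 91.4, 93.1 and 102 in hypertension, 60.8, 82.9 and 49.15 in atherosclerosis and 82.5, 94.99 and 119.6 after MI. Of its atherosclerosis libraries, 2 lay below all others and 1 within the range of controls. It had 100% unique windows and a log2 fold change of -0.42 (SE 0.19, edgeR adjusted p = 0.831). Mrps12 lies 9.04 Mb from Apoe on chromosome 7 (28739641 to 28741820). Rps16, which had the smallest p of the cytosolic genes after Rpl12, lies 8.65 Mb from Apoe, with a log2 fold change of -0.65 (SE 0.42, edgeR adjusted p = 0.873) at 1.33 to 4.40 CPM against 2.75 to 6.78 in controls. Of other members on chromosome 7, Rps19 at 5.19 Mb from Apoe had -0.33. On the other side of Apoe, Rpl28 had 0.18. Rps9, on that side too but farther from Apoe than Mrps12 (annotated start near 3704031), had -0.12. Whether flanking DNA of the targeted allele bears on these genes was not tested. Mrpl48 was at 32.65 to 59.85 CPM against 52.0 to 68.4 in controls (log2 fold change -0.41, SE 0.21, edgeR adjusted p = 0.860).

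After MI, 74 of 78 cytosolic and 68 of 77 mitochondrial genes had a log2 fold change above 0, but no member differed from controls at an adjusted p under 0.05, as held for 0% of all genes. One cytosolic gene (Rps27) and no mitochondrial gene was higher at an unadjusted p under 0.05 and none lower, with 1.23% of all genes higher and 1.57% lower. The medians were 0.27 and 0.13, beside 0.00 over all genes, and the small subunit of the cytosol had 0.31 with all 33 genes above 0, the large subunit 0.23. Leaving out MI replicate 2 brought the cytosolic median to 0.03, leaving out control replicate 2 gave 0.47, and it turned to -0.16 with the B cell sum as a covariate. In the B cell sum every MI library (at most 492 CPM) lay below every control (at least 521). Values with this covariate are therefore extrapolations between groups that do not overlap in it. The mitochondrial median stood between 0.09 and 0.21 when each library was left out in turn, at 0.05 with the neutrophil sum and at 0.00 with the B cell sum as a covariate. All 3 MI libraries were above controls for 6 cytosolic and 8 mitochondrial genes and below them for 0 and 1, against 4.27% and 4.59% of all genes.

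Rps27 gave 3.87, 3.68 and 3.96 CPM in controls, 4.09, 4.20 and 3.71 in hypertension, 2.85, 4.29 and 4.69 in atherosclerosis and 6.79, 4.55 and 5.27 after MI. The MI libraries lay above the controls, with a log2 fold change of 0.53 (SE 0.24, edgeR adjusted p = 1), while its identical copy Rps27rt overlapped between these groups (6.17 to 10.1 CPM in controls, 6.88 to 10.8 after MI). Rpl35, near the tunnel exit, had 53.3 to 88.6 CPM in controls and 88.95 to 109.6 after MI (0.51, SE 0.26). The strand counted is not stated, and 66% of the exonic bases of Rpl35 overlap an exon on the other strand. Rpl36al was at 8.34 to 10.03 CPM in controls against 10.8 to 13.6 after MI (0.43, SE 0.22). Among mitochondrial genes Mrpl40 (64.2 to 75.8 CPM in controls, 79.2 to 83.5 after MI) and Mrps18b (10.5 to 15.4 and 15.7 to 17.7) were above controls in all 3 MI libraries. Mrpl49 was below them, with 41.3, 45.1 and 49.9 CPM in controls and 28.9, 40.4 and 40.0 after MI (log2 fold change -0.32, SE 0.16, edgeR adjusted p = 1).

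**Figure D4:**
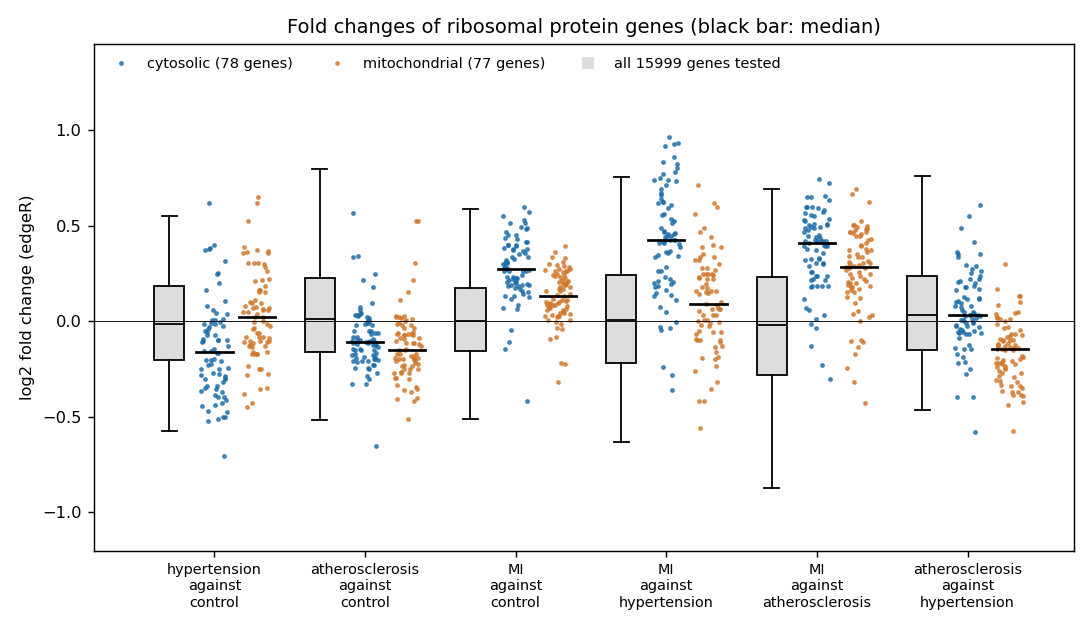
Log2 fold changes from edgeR for cytosolic and mitochondrial members (points, black bars at the median) in 6 comparisons, beside all genes tested (box from the lower to the upper quartile, whiskers at the 5th and 95th percentiles). Cytosolic medians are highest for MI against hypertension (0.43) and MI against atherosclerosis (0.41), and no point is called at an adjusted p under 0.05. The MI group holds the library with the highest cytosolic median (replicate 2, 0.63) and the atherosclerosis group the one with the lowest (replicate 2, -0.66).

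Comparisons between the disease groups share no control libraries, and again called 0 of 155 members with edgeR's quasi-likelihood and likelihood-ratio tests. DESeq2 also called 0, but for MI against hypertension it gave an adjusted p for 68 of 78 cytosolic and 76 of 77 mitochondrial members only. Of all genes, 0.269% were called between MI and atherosclerosis, 0% between MI and hypertension and 0.0625% between atherosclerosis and hypertension. Between MI and atherosclerosis, 16 of 77 mitochondrial and 3 of 78 cytosolic genes were higher after MI at an unadjusted p under 0.05 and none lower, against 5.34% of all genes higher and 7.36% lower. The medians were 0.28 for the mitochondrial and 0.41 for the cytosolic set, beside -0.02 over all genes. Mrpl33 was higher by 0.69 (SE 0.20, edgeR adjusted p = 0.181), with all 3 MI libraries above all 3 of atherosclerosis. Mrps12 was higher by 0.62 (SE 0.19, edgeR adjusted p = 0.218), with MI at 82.5 CPM or more and 1 atherosclerosis library at 82.9. Between MI and hypertension, the medians were 0.43 for cytosolic and 0.09 for mitochondrial members, beside 0.01 over all genes. At an unadjusted p under 0.05, 7 of 78 cytosolic and 2 of 77 mitochondrial genes were higher and 0 and 1 lower. Of all 15999 genes, 668 were higher and 677 lower. Between atherosclerosis and hypertension, the medians were 0.03 and -0.15, beside 0.03 over all genes. In the library medians of cytosolic genes, MI replicate 2 stood at 0.63 and the others of MI at -0.02 and 0.13. Those of atherosclerosis ranged from -0.66 to 0.29 and those of hypertension from -0.29 to -0.02. For mitochondrial genes, atherosclerosis replicates 2 and 4 stood at -0.39 and -0.30. Atherosclerosis replicate 3, at 0.14, lay within the MI libraries (0.09 to 0.14). With genes of few counts kept in the fit, MI against hypertension called 10 of 81 cytosolic genes, beside 1.17% of all genes, and MI against atherosclerosis called 1 of 78 mitochondrial genes, beside 2.19%. This setting called more of all genes too. For MI against hypertension it called 422 of 36003, where the main fit called 0 of 15999. With the erythroid sum as a covariate, MI against atherosclerosis called 10 of 78 cytosolic and 3 of 77 mitochondrial genes, beside 1.99% of all genes.

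None of the members known for roles outside the ribosome or in disease passed the test. Rpl5 and Rpl11, which bind MDM2 and thereby stabilize p53, were at 3.61 ± 0.135 and 5.42 ± 1.16 CPM in controls and at 3.95 ± 0.80 and 6.61 ± 1.25 after MI (SD, n = 3). Rps6, the classical target of S6 kinases, was at 3.64 ± 0.665 CPM in controls and 3.99 ± 1.13 after MI (SD, n = 3), and Rpl5 and Rps6 had no unique window. Rpl13a, known for silencing inflammatory messages after interferon gamma, stood at 27.4 ± 3.25 CPM in controls, 26.6 ± 2.11 in hypertension, 25.5 ± 9.75 in atherosclerosis and 26.5 ± 5.08 after MI (SD, n = 3). Rps3, which also acts in DNA repair, had 699 ± 117 CPM in controls and 837 ± 261 after MI, and Rps14, whose loss underlies the anemia of the 5q- syndrome, had 562 ± 156 and 786 ± 181 (SD, n = 3). Mrpl12, which binds the mitochondrial RNA polymerase, had 69.9 ± 13.8 CPM in controls, 62.1 ± 4.02 in hypertension, 66.7 ± 26.4 in atherosclerosis and 74.8 ± 14.8 after MI (SD, n = 3). Mrpl41, linked to apoptosis through BCL2, had 71.3 ± 7.05, 73.7 ± 1.96, 57.8 ± 19.4 and 81.6 ± 10.8 CPM in the same order (SD, n = 3).

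Genes that work with the ribosome were taken from fixed lists, and none of them was called in any of the 6 comparisons. The 7 ribosomal proteins whose symbols fall outside the rule followed the cytosolic set, with a median after MI of 0.37 and 7 of 7 above 0, while the medians for hypertension and atherosclerosis were -0.18 and -0.11. Among these, Rack1, a scaffold on the small subunit with 98.6% unique windows, was at 438 ± 89.7 CPM in controls and 539 ± 145 after MI, and Rplp0 of the stalk at 551 ± 111 and 702 ± 281 (SD, n = 3). Both genes exceeded all controls in MI replicate 2 only, and their other MI libraries lay within the range of controls. Fau was above all controls in each MI library. For 12 translation factors whose messages also begin with pyrimidines, the median after MI was 0.12 with 12 of 12 above 0. The libraries were less uniform than this count. For Eef2, Eef1a1 and Eif3f, MI replicate 2 lay above all controls and the other MI libraries below them. Eef2 had 582 to 656 CPM in controls and 999.6, 484 and 503 after MI. Tpt1, in contrast, was above all controls in each MI library. For 25 genes of ribosome assembly, among them Ncl, Npm1 and the polymerase I subunit Polr1a, the median after MI was 0.14 with 19 above 0. For 26 genes of mitochondrial translation outside the rule, it was 0.01 with 13 above 0. The 17 regulators, which include Mtor, Larp1 and Myc, had a median of 0.02 after MI, 0.10 in atherosclerosis and 0.01 in hypertension.

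The start of each messenger RNA was read from RefSeq promoters on GRCm38.p6 (250 bases before to 50 after the start), 1 per gene, which were at hand for 63 cytosolic and 69 mitochondrial members. A C at the first base with C or T at the next 4 occurred in 12 of 63 cytosolic (19.0%) and 0 of 69 mitochondrial starts, against 235 of 10213 tested genes. A run of at least 8 C or T near the start, touching the stretch from 3 bases before the first base to 5 after it, was found in 18 cytosolic (28.6%) and 5 mitochondrial (7.25%) genes, against 8.86% of tested genes. The run covered the first base itself in 14 cytosolic (22.2%) and 1 mitochondrial of these genes, against 3.99% of tested genes. The windows below give 10 bases before and 20 from the annotated start, 5′ to 3′, with the longest C and T run in or touching that stretch in capitals. They show a run of 14 bases (Rpl13a), members named above for their values (Rps27, Rps9, Rpl12, Mrps12, Mrps30), and Rpl4 as a cytosolic gene whose annotated start lacks such a run.
Rpl13a: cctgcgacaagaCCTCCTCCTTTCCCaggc
Rps27: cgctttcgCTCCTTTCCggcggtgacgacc
Rps9: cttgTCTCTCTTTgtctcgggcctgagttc
Rpl12: agcaggatccgTCTTTTCggctttcggctc
Rpl4: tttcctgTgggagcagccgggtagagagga
Mrps12: aaggaggaaCCCCggaaggggctggaggta
Mrps30: ctcaagTTCCgggtcgcggcgggcgaaaat
These windows lie at chr7:45128726-45128755 (minus strand), chr3:90213629-90213658 (minus), chr7:3704031-3704060 (plus), chr2:32961702-32961731 (plus), chr9:64173377-64173406 (plus), chr7:28741802-28741831 (minus) and chr13:118387233-118387262 (minus), in the order printed. The run covers the first base in Rps27, Rps9 and Mrps12, begins after it in Rpl13a and Rpl12 and ends before it in Rpl4 and Mrps30. Starts in RefSeq can differ from the base used in these cells, which was not tested here.

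**Figure D5:**
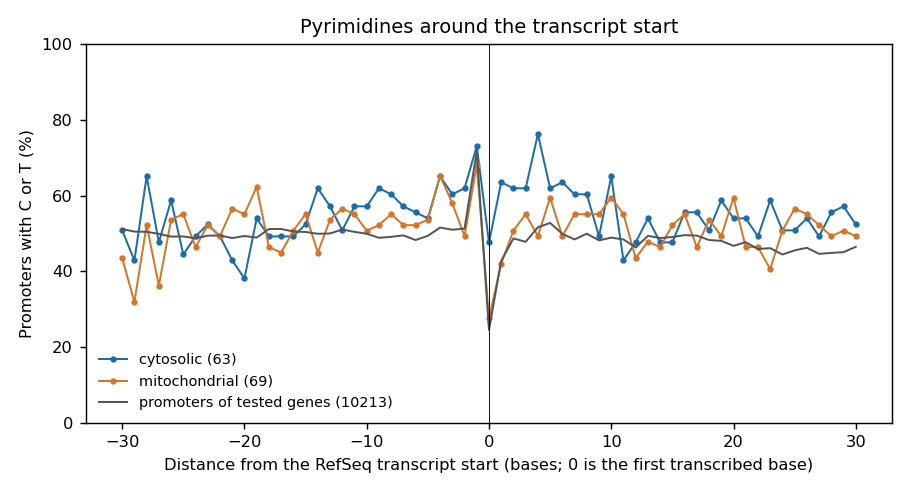
Percent of promoters with C or T at each base from 30 before to 30 after the annotated transcript start (0 is the first transcribed base). Cytosolic members stay near 60% or above from base 1 to base 8 and reach 76.2% at base 4, while mitochondrial members (49.3% at base 4) stay close to all tested genes (51.6%).

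Motifs were searched on both strands of the same windows. CCGGAAG, bound by GABPA and other ETS factors, occurred in 36.5% of cytosolic and 34.8% of mitochondrial promoters, against 18.1% of promoters of tested genes and 12.3% of all 16522 promoters. It is part of the Mrps12 window above. The core motif of NRF1 (GCATGCGC) occurred in 3.17%, 11.6%, 5.31% and 3.76% in the same order, and that of YY1 (AAGATGGC) in 7.94%, 17.4%, 4.56% and 3.27%. A match describes the sequence alone. Cytosolic genes with a run of at least 8 pyrimidines near the start had a median log2 fold change after MI of 0.31 (18 genes) and those without 0.26 (42 genes), in hypertension -0.18 and -0.10, and in atherosclerosis -0.11 and -0.11.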

How the data were processed

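Polyadenylated RNA of sorted cells from 12 mice was sequenced as strand-specific libraries. Per the labels and the methods of the study, the authors aligned reads to GRCm38.p6 with STAR 2.7.3a and deposited raw counts per Ensembl gene from its GeneCounts option, which takes reads with 1 place in the genome. The strand column used is not given in the sources used here. All 12 count columns were matched to mice by name. Any 2 libraries of a group differed in the counts of at least 25360 genes.

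Genes passing filterByExpr (15999) were fitted in edgeR 4.0.16 (R 4.3.3) with TMM scaling and 1 coefficient per group over all 12 libraries, and 6 comparisons were made with the quasi-likelihood test, two-sided, with Benjamini-Hochberg adjustment. The study used edgeR's likelihood-ratio test, which is an alternative here beside DESeq2 1.42.0. SE is the log2 fold change divided by the root of F. Steps were tested on simulated data. Nothing says that replicate numbers pair mice, and p-values measure the spread between these mice only. Total counts per library (17007088 to 25136936) set the precision, and the floor of 3 counts covers counting error only.

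Levels are TMM-scaled CPM, per kb of exonic length (GENCODE M21) with 0.01 added before log2. Deviations from the control mean use log2(CPM + 0.5). Unique windows are 50-base windows of coding sequence that no transcript of another gene holds, a proxy that ignores untranslated ends and unannotated copies. Members, lists and tests were chosen with earlier results of these data known, so lists are described by counts and medians without a test. Named are, in each comparison with controls, the 3 members of each set with the smallest p, the 3 highest, lowest, most and least variable of each set, paralogs, members with roles in disease and members not tested. Other genes were named after their values were seen. The values of 1 member are not reported here.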

Additional observations from a re-analysis of the deposited data

Results flagged for a closer look

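In 5 cases, every library of one disease group lay above the control mean of a gene and every library of another lay below it. Mrpl33 was lower in hypertension than after MI by a mean log2 CPM difference of -0.568, and lower in atherosclerosis than after MI by -0.726. Mrps12 was higher in hypertension than in atherosclerosis, with a difference of 0.603. Rpl22, which binds RNA and has roles in lymphocyte development, gave -0.523 for hypertension minus MI (45.4 to 56.9 CPM against 59.4 to 100.8), and Rpl9 gave -0.548 for hypertension minus atherosclerosis (6.16 to 6.95 CPM against 8.36 to 10.7). These opposite directions were chosen from the data and were not tested as such. The share of all genes tested that meet the same rule is not given here, so the 5 cases cannot be set against it. In direct comparisons of the disease groups, edgeR's adjusted p was 0.556 and 0.181 for Mrpl33, 0.590 for Mrps12, 0.605 for Rpl22 and 0.545 for Rpl9. Groups of 3 libraries were too small to test for single libraries that stand apart.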

How the results depend on the processing

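When the values that answer a comparison were recomputed under other settings or with a library left out, 396 kept their count or moved by less than the spread between libraries and 16 moved further. They include counts of called members, of which the main fit had none. For the cytosolic median in hypertension (-0.16) the spread was 0.297, so a median of 0.01 without control replicate 2 still counts as kept. The tally is therefore no measure of how stable the small medians are. The cytosolic median in atherosclerosis changed sign within the spread between libraries, to 0.27 with the neutrophil sum, where the mitochondrial median was 0.01. With the neutrophil sum as a covariate, the cytosolic median in hypertension was 0.32, the mitochondrial median 0.20, and Rps28 turned to 0.18. With the B cell sum, the cytosolic median after MI was -0.16 and the mitochondrial median 0.00. In both cases the disease libraries and controls did not overlap in the marker sum, so these values are extrapolations. With the erythroid sum, 10 cytosolic and 3 mitochondrial genes (Mrpl33, Mrpl43, Mrps23) were called for MI against atherosclerosis, beside 1.99% of all genes. Without a filter on low counts, 10 cytosolic genes were called for MI against hypertension, beside 1.17% of all genes (0% in the main fit). For MI against atherosclerosis 1 mitochondrial gene (Mrpl33) was called, beside 2.19% (0.269% in the main fit). The cytosolic minus mitochondrial level was -0.52 in controls and -0.67 in hypertension with a pseudocount of 1, and -0.45, -0.61 and -0.31 in controls, hypertension and MI over genes with at least 10 counts in every library. Over genes with at least 50% unique windows, a choice made after seeing the data, it was 0.79, 0.52, 0.75 and 0.77 in controls, hypertension, atherosclerosis and MI. These genes include Rpl10l, which had no counts, so these values depend on the pseudocount of 0.01. The causes of these shifts were not tested.

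Leaving out 1 library at a time moved the cytosolic median between -0.27 and 0.01 in hypertension, -0.35 and 0.11 in atherosclerosis and 0.03 and 0.47 after MI, and the mitochondrial median between -0.07 and 0.08, -0.31 and -0.06, and 0.09 and 0.21. With a replicate block, these medians were -0.16, -0.07 and 0.27 for cytosolic and 0.02, -0.16 and 0.14 for mitochondrial genes, and 0 members were called. Samples with the same replicate number correlated with -0.282 to 0.296 in their deviations from group means, and 4 of 12 libraries correlated best with their own number. Poorly unique cytosolic genes limit what the counts can show.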
